A study of Mus musculus with 10 samples.

Results

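The proteasome subunit genes were taken as the protein-coding genes of the GENCODE M21 annotation on chromosomes 1 to 19 whose symbol is Psma, Psmb, Psmc, Psmd, Psme, Psmf or Psmg followed by a number. There were 47 such genes among 20807 protein-coding genes on these chromosomes. Binding of RBPJ near them was read from ChIP-seq (chromatin immunoprecipitation and sequencing) of RD1 cells, which carry the label of brain pericytes from mouse, cells that wrap capillary walls. In all, 10 samples form 5 groups (RBPJ, H3K4me1, H3K4me3, H3 and input chromatin) with 2 replicates in each, and the labels name neither a treatment nor a genotype for RD1. Results rest on the peak lists for RBPJ replicates 1 and 2, while the 8 histone and input samples were not used here. The lists matched in every byte and were counted as 1 list of 11094 peaks on the mouse build GRCm38, so no spread between replicates could be computed. Each peak has a start and an end but no height, score or read count, and the depth behind a peak is unknown. A peak list holds no expression level, so the cell type given in the labels could not be checked against marker expression.

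The 26S proteasome is the protease that degrades ubiquitin-tagged proteins. Its barrel-shaped 20S core is built from outer rings of alpha subunits, which gate the entrance, and inner rings of beta subunits, which include the active sites. The 19S particle caps the core, recognises ubiquitin, unfolds the substrate with a ring of ATPases and feeds it into the barrel. RBPJ is the DNA-binding factor of the Notch pathway, and its preferred site holds the hexamer TGGGAA. It recruits co-repressors when Notch is inactive and works with the Notch intracellular domain when the pathway is on.

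An RBPJ peak was present at 16 of the 47 proteasome subunit genes, or 34.0% (95% exact binomial interval 20.9% to 49.3%), and absent at the other 31. A gene was counted when the centre of a peak lay between 5 kb upstream and 1 kb downstream of its annotated transcription start. Among the other protein-coding genes the share was 28.3%, or 5872 of 20760, a value inside the interval of the subunit genes. The share of bound subunit genes was therefore near the background. Without chromosomes 4 and 7, which hold few peaks, the shares were 35.7% and 32.8%, and the difference of 5.76 percentage points became 2.94. It turned to -9.28 when both sides were restricted to CpG-rich promoters, and to -0.40 when each gene was given a regulatory domain of up to 1 Mb. Genes of 1 list are not independent replicates, and intervals here cover counting error only.

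All 16 bound members carried the peak across the transcription start itself. Of the other bound genes, 83.2% had the start inside the peak. The centre of the nearest peak lay 6 to 803 bp from the start of the members, with a median of 169.5 bp, against a median of 223 bp over the other bound genes. The centre fell within 400 bp of the start at 14 of 16 members and at 68.2% of the other bound genes. It was downstream of the start at 10 of 16 members and at 57.0% of the others. No interval was computed for these position shares of 16 members, and their differences from the other bound genes were not tested. Peak width ran from 350 to 2212 bp with a median of 850 bp, beside 828.5 bp for the other genes. The widths of the members thus spanned the ordinary range for a promoter-proximal RBPJ peak, from Psmb3, whose peak was wider than 11.5% of the peaks at other genes, to Psmb1, whose peak was wider than 89.6% of them.

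**Figure D1:**
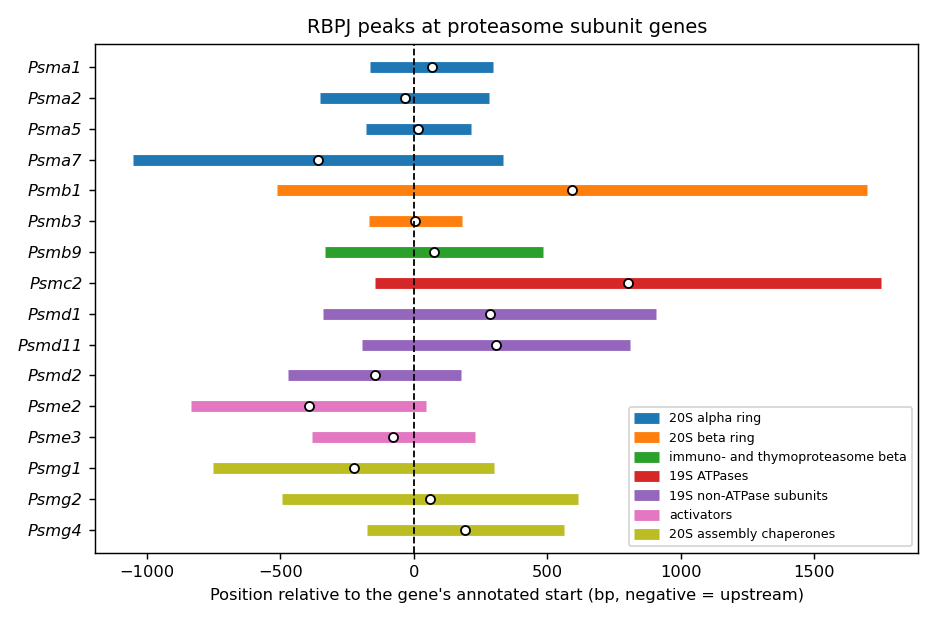
Extent of the RBPJ peak at each of the 16 bound proteasome subunit genes, in bp from the annotated start in the direction of the gene (dashed line at 0). Bars are coloured by subassembly and the white circle marks the peak centre. Every bar crosses the start, and the centres of Psmb1 and Psmc2 lie farthest from it, at 594 and 803 bp downstream.

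The hexamer TGGGAA, searched on both strands, occurred in the central 200 bp of none of the 16 peaks (0 of 16, 95% exact binomial interval 0% to 20.6%). Of the other bound genes, 16.1% held it there in their nearest peak. That share lay inside the interval, so a lack of sites at the members was not detectable with 16 peaks. The 5872 other bound genes had 5029 distinct peaks, and a shared peak counted for each of its genes. Over the whole peak, 10 of 16 members (62.5%) and 58.0% of the other bound genes held at least 1 copy. The density was 0.971 sites per kb over the member peaks and 1.04 sites per kb over the peaks at other genes. Psmb1 held 4 copies, and Psmd1 and Psmd11 each held 2 copies. Psma1, Psmb3, Psmb9, Psmc2, Psmd2, Psmg1 and Psmg4 held 1 each. No copy was found in the peaks of Psma2, Psma5, Psma7, Psme2, Psme3 and Psmg2. A match to these letters is a description of the sequence and does not mark a bound site.

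In the peak nearest to each start, the copies closest to the centre of the interval were those of Psmb3 at 121 bp, Psmd2 at 154 bp, Psmb9 at 173 bp, Psma1 at 181 bp and Psmg1 at 193 bp. These copies are shown with their flanks, since they lie closest to the centres of these 16 intervals. They were chosen after their positions were seen. Each line gives 30 bases of GRCm38 in the direction of the gene, with the hexamer, or its reverse complement TTCCCA, in capitals.
Psmb3, chr11:97703512-97703541, plus strand: aggagtctgggaTGGGAActgaaagcaagg
Psmd2, chr16:20651647-20651676, plus strand: cgcgtggccttcTGGGAAaaggggcggtgc
Psmb9, chr17:34187502-34187531, minus strand: cttgcgtgaattTTCCCAtcccaggcccca
Psma1, chr7:114276218-114276247, minus strand: tgcgcattggctTTCCCAccccggagcttc
Psmg1, chr16:95991363-95991392, minus strand: atgtgtttttatTTCCCActgaggtgccag

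Psmd1 was the only member with more than 1 peak in its window. Its second peak, 126 bp wide and centred 4793 bp upstream of the start, overlapped 0 bases of any annotated exon. It was the only peak in a member's window with TGGGAA in its central 200 bp, and it is shown whole for that reason, on the plus strand with the hexamer in capitals.
Psmd1 second peak, chr1:86059532-86059657: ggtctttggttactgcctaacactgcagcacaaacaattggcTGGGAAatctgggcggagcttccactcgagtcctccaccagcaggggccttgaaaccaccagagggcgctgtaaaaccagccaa

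**Figure D2:**
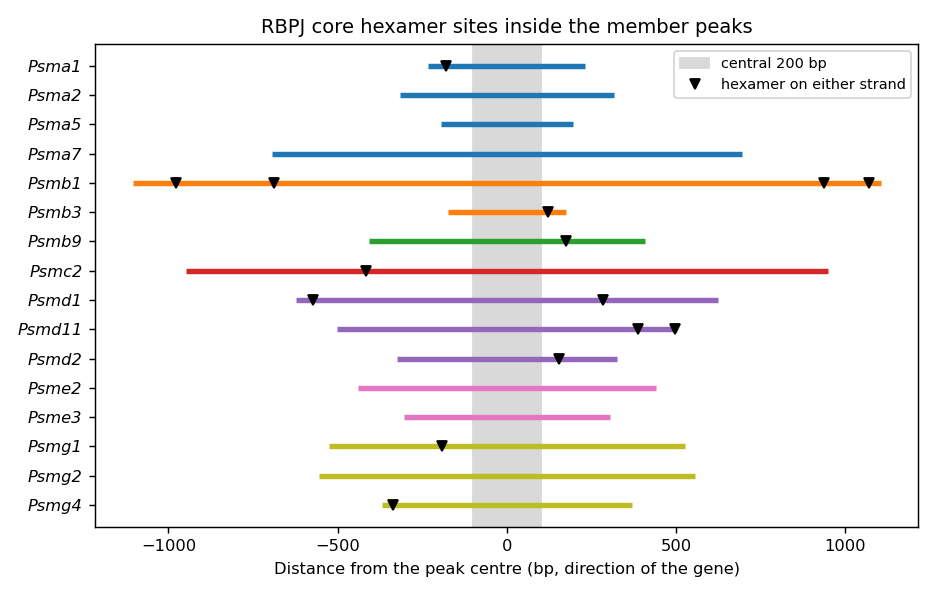
Copies of the RBPJ core hexamer (triangles, either strand) within the peaks of the 16 bound proteasome subunit genes, in bp from the peak centre in the direction of the gene. Lines show the peak, coloured by subassembly as in the map of peaks, and the grey band is the central 200 bp. No triangle lies in the band, and the copy nearest to a centre among these 16 peaks is that of Psmb3 at 121 bp.

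Of the 8 alpha ring genes, 4 had a peak, namely Psma1, Psma2, Psma5 and Psma7. The interval on that share ran from 15.7% to 84.3%, which includes the background of 28.3%. The Psma1 peak (chr7:114275820-114276283, 464 bp) was centred in an exon 67 bp downstream of the start. Chromosome 7 held 146 peaks and chromosome 4 held 158, against a median of 599 on the other 17 autosomes, and 4.93% of the other genes on these chromosomes had a peak. Psma1 was the 1 bound gene among the 5 members that lie there. The Psma5 peak (chr3:108256749-108257139, 391 bp) was centred in an exon 18 bp from the start. The Psma2 peak (chr13:14612890-14613522, 633 bp) and the Psma7 peak (chr2:180042100-180043486, 1387 bp) were centred 34 and 360 bp upstream of their starts. No peak was listed at Psma3, Psma4, Psma6 and Psma8, of which Psma8 encodes a testis-enriched alpha subunit. Their nearest peak centres were 41764 bp (Psma3), 52591 bp (Psma4), 59204 bp (Psma6) and 77658 bp (Psma8) away.

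Of the 7 beta ring genes of the standard core, 2 had a peak, and both encode structural subunits without an active site. The Psmb3 peak (chr11:97703231-97703580) was the narrowest of all members at 350 bp and had its centre 6 bp from the start. The Psmb1 peak (chr17:15498052-15500263) was the widest at 2212 bp and was centred in an intron 594 bp downstream. The genes of the catalytic subunits had no peak in the window. The nearest centre was 23375 bp from Psmb5, which encodes the chymotrypsin-like subunit, 14775 bp from Psmb6, the caspase-like subunit, and 8782 bp from Psmb7, the trypsin-like subunit. Psmb4 and Psmb2, structural subunits, also lacked a peak, with the nearest centres at 66733 and 290486 bp. Psmb2 lies on chromosome 4.

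Among the 4 genes of the interferon-inducible and thymic beta subunits, Psmb9 alone had a peak (chr17:34187280-34188098, 819 bp), centred in an exon 75 bp from the start. Psmb9 replaces Psmb6 in the immunoproteasome and was the single gene of a catalytic subunit with a peak. Psmb8, which replaces Psmb5 and lies in the same region of chromosome 17, had its nearest peak centre 7085 bp downstream of the start. Psmb10, which replaces Psmb7, and Psmb11, the thymus-specific subunit, had their nearest centres 27643 and 19964 bp away. The nearest peak of Psmb11 was also that of Psmb5 (chr14:54641020-54641775).

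**Figure D3:**
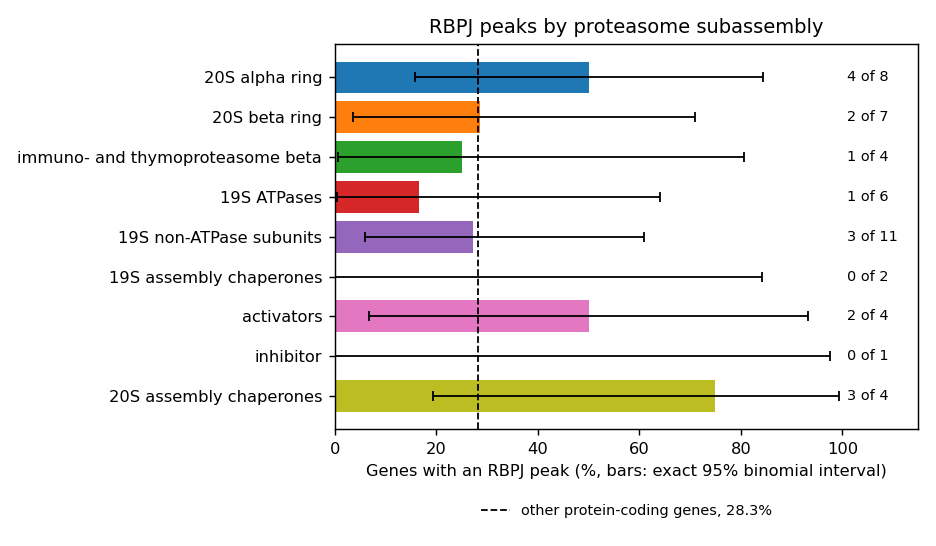
Share of genes with an RBPJ peak in each proteasome subassembly, in percent, with the counts at the right. Error bars are exact 95% binomial intervals and the dashed line is the share of other protein-coding genes, 28.3%. Every interval includes the dashed line, from 0 of 2 for the 19S assembly chaperones to 3 of 4 for the 20S assembly chaperones.

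Among the 17 subunit genes of the 19S particle named Psmc or Psmd, 4 had a peak (23.5%, interval 6.81% to 49.9%). Subunits with other symbols, such as Sem1, were counted with the pathway genes. Of the 6 ATPase genes, whose products form the unfolding ring, Psmc2 had a peak (chr5:21785139-21787034, 1896 bp), centred in an intron 803 bp downstream of the start, the largest distance of any bound member. Psmc1, Psmc3, Psmc4, Psmc5 and Psmc6 had none, with nearest centres from 11061 bp (Psmc6) to 90604 bp (Psmc1). Psmc4 lies on chromosome 7.

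Of the 11 non-ATPase 19S genes, Psmd1, Psmd2 and Psmd11 had a peak. Psmd1 and Psmd2 encode the large scaffold subunits of the base, and Psmd11 encodes a lid subunit. Their nearest peaks were at chr1:86064049-86065296 (Psmd1, 1248 bp, centre in an exon 285 bp downstream), chr16:20651183-20651831 (Psmd2, 649 bp, centre 145 bp upstream) and chr11:80428422-80429427 (Psmd11, 1006 bp, centre in an intron 309 bp downstream). No peak was present at Psmd4, a ubiquitin receptor, at Psmd14, the deubiquitinase of the lid, or at the lid genes Psmd3, Psmd6, Psmd7, Psmd8, Psmd12 and Psmd13. Their nearest centres ran from 9307 bp (Psmd12) to 295153 bp (Psmd7), and Psmd8 and Psmd13 lie on chromosome 7. Psmd10, a chaperone gene on chromosome X and so outside the 47, had no peak either.

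The 19S assembly chaperone genes Psmd5 and Psmd9 had no peak. Their annotated gene starts are not typical of the set, because in RefSeq the starts of Psmd5 and Psmd9 lie 4006 and 58777 bp away. With the starts of coding transcripts in place of the gene start, Psmd5 and Psme4 gained a peak, no member lost one, and 38.3% of members were bound beside 31.4% of other genes. Of the 39 members found in the RefSeq promoter table, 30 had a start within 100 bp of the GENCODE start and 4 (Psmb11, Psmd5, Psmd9 and Psmf1) had one more than 1 kb away.

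Of the 4 activator genes, Psme2 and Psme3 had a peak. Psme1 and Psme2 encode the partners of the interferon-inducible PA28 ring, and Psme3 encodes its nuclear relative. The Psme2 peak (chr14:55591066-55591946, 881 bp) was centred 393 bp upstream of the start, and it was also the nearest peak of Psme1, at 13383 bp. The Psme3 peak (chr11:101315831-101316441, 611 bp) was centred 77 bp upstream. Psme4, which encodes the activator PA200, fell just outside the limit. Its nearest peak (chr11:30771550-30774091, 2542 bp) covered the start but was centred 1094 bp downstream, against 803 bp for Psmc2 just inside. Psmf1, the gene of the inhibitor PI31, had its nearest peak centre 218245 bp away.

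The 20S assembly chaperones work as the pairs Psmg1 with Psmg2 and Psmg3 with Psmg4, which guide the building of the alpha ring. Psmg1, Psmg2 and Psmg4 had a peak and Psmg3 had none, its nearest centre lying 33081 bp away. Of 4 genes these 3 gave the highest share of any subassembly, with an interval from 19.4% to 99.4%. The Psmg1 peak (chr16:95990659-95991710, 1052 bp) was centred 224 bp upstream, the Psmg4 peak (chr13:34162789-34163527, 739 bp) in an exon 194 bp downstream, and the Psmg2 peak (1111 bp) in an exon 60 bp downstream. Both genes of the first pair thus had a peak, against Psmg4 alone in the second.

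At 8 of 16 bound members (50.0%, interval 24.7% to 75.3%) the centre also lay in the window of another protein-coding gene, beside 28.9% of the other bound genes, a share inside that interval. In every such case the neighbour was on the opposite strand. The start of the neighbour lay 32 bp from that of Psmc2 (Dnajc2, a ribosome-associated chaperone), 75 bp from Psma2 (Mrpl32, a mitochondrial ribosomal protein), 76 bp from Psma7 (Ss18l1, a chromatin-remodelling subunit), 137 bp from Psmb1 (Tbp, the TATA-binding protein), 211 bp from Psmb9 (Tap1, a peptide transporter for antigen presentation), 263 bp from Psmg2 (Cep76, a centrosomal protein), 595 bp from Psme2 (Rnf31, a linear ubiquitin ligase) and 2902 bp from Psmb3 (Pcgf2, a Polycomb protein). The peak centre was nearer to the neighbour's start at Psma7, where it lay 284 bp from Ss18l1, and at Psme2, where it lay 202 bp from Rnf31. At the other 6 it was nearer to the start of the proteasome gene. The list cannot tell which of the paired genes a peak belongs to.

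Genes with an opposite-strand start within 1 kb made up 11 of the 47 members (23.4%) and 11.1% of the other genes. Of these 11 members 7 had a peak (63.6%, interval 30.8% to 89.1%), beside 53.1% of the other genes so arranged. The 4 without a peak were Psma4, Psmc5, Psmd5 and Psmd13. Of the 36 members with no such neighbour 9 had a peak, or 25.0%, beside 25.2% of the other genes, a difference of -0.18 percentage points. This comparison was added after the data were seen. Shared peaks had a median width of 996 bp and unshared ones of 694 bp (n = 8 each), and the widths overlapped, from 350 to 2212 bp and from 391 to 1248 bp.

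The bases between the paired starts are shown for Psma2, Psma7, Psmb1 and Psmc2, the diverging pairs with the smallest gaps among those whose peak covers both starts. The peaks of Psmg2 and Psme2 also covered both starts, as did that of Psmb9, where Tap1 starts inside Psmb9 and no gap lies between the genes. These are not shown. The sequences run in the direction of the proteasome gene and end next to its start. Capitals mark TGGGAA in the gap of Psmb1 and CCAAT, the box bound by the factor NF-Y, in that of Psma2. The gaps of Psma7 and Psmc2 held none of the motifs searched.
Psma2 and Mrpl32, chr13:14613166-14613239: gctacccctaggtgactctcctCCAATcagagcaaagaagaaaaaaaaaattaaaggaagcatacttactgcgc
Psma7 and Ss18l1, chr2:180042434-180042508: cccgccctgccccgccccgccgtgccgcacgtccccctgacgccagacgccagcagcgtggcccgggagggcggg
Psmb1 and Tbp, chr17:15499752-15499887: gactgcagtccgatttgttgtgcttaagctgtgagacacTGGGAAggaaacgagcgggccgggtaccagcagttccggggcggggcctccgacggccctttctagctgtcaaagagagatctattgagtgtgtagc
Psmc2 and Dnajc2, chr5:21785252-21785282: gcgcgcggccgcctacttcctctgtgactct

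CpG-rich promoters are the common type among genes active in every cell. A promoter was called CpG-rich when the 500 bp to either side of the start had at least 55% G+C and a ratio of observed to expected CpG of at least 0.6. This held for 24 of 47 members (51.1%) and for 39.6% of the other genes. Within the CpG-rich class 10 of 24 members had a peak (41.7%, interval 22.1% to 63.4%), beside 50.9% of the other CpG-rich genes. Outside it 6 of 23 members had a peak (26.1%, interval 10.2% to 48.4%), beside 13.4%. Both intervals included the background of their class, with the members below it in the first and above it in the second. The bound members outside the class were Psma2, Psmb1, Psmc2, Psmd1, Psme2 and Psmg4. Most lay close to a limit. Psmg4 and Psmd1 met the G+C limit but had ratios of 0.597 and 0.587. Psma2, Psmb1 and Psmc2 met the ratio limit but had 52.8%, 52.7% and 53.0% G+C. The 13.4% covers all other genes outside the class, however far from its limits. All 16 bound members had at least 52.7% G+C, while the 31 without a peak ranged from 45.4% to 64.0%. Other bound genes reached down to 33.6%, so the minimum over 16 genes marks no limit for a peak. The central 200 bp of the member peaks had a median of 59.8% G+C, against 65.5% for the peaks at other genes.

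**Figure D4:**
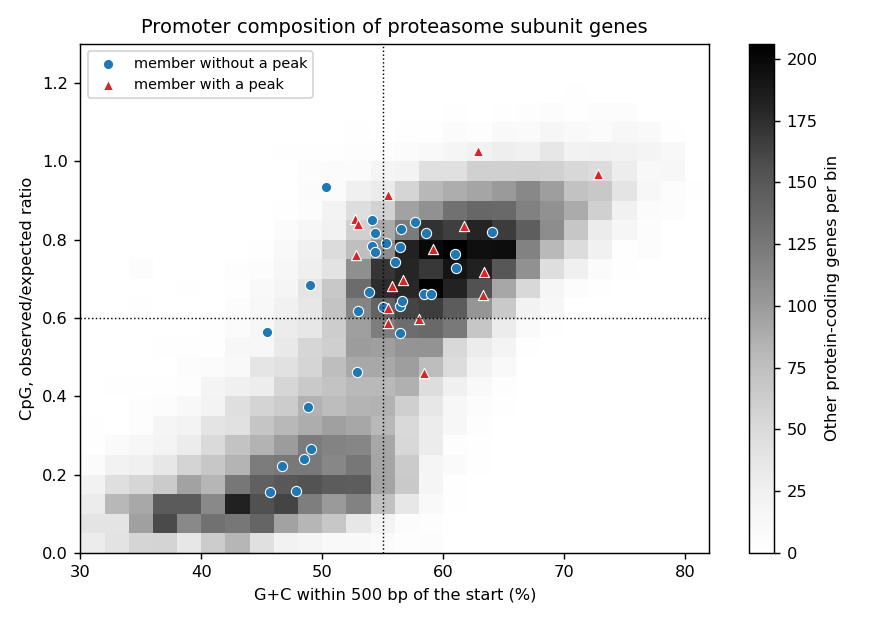
G+C content in percent (x axis) and ratio of observed to expected CpG (y axis) within 500 bp of the start for the 47 proteasome subunit genes, with a peak (red triangles) or without (blue circles), over the density of the 20760 other genes (grey). Dotted lines mark the limits of the CpG-rich class, 55% and 0.6. Bound and unbound members overlap over most of the range. No bound member falls below 52.7% G+C, while other bound genes reach down to 33.6%.

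Other promoter motifs were counted from 250 bp upstream to 50 bp downstream of the start, on both strands. No motif contains another. The Ets-type motif CCGGAAG was present at 15 of 47 members (31.9%, interval 19.1% to 47.1%), beside 2294 of 20807 protein-coding promoters in all and 1478 of the 8228 other CpG-rich ones. It was found at 5 of 16 members with a peak and at 10 of 31 without, or 31.3% and 32.3%. Over the other genes these shares were 18.4% with a peak and 8.03% without. The bound members with it were Psmc2, Psmd2, Psmd11, Psme3 and Psmg1. TGACNNNGC, the core of the antioxidant response element through which Nfe2l1 activates proteasome genes, was present at 6 of 47 members (12.8%) and at 12.6% of all promoters. These 6 were Psmb2, Psmb5, Psmb6, Psmc6, Psmd7 and Psmd12, none of which had a peak. Among the bound members it was thus found at 0 of 16 (interval 0% to 20.6%), beside 15.4% of the other bound genes, a share inside that interval, and among members without a peak at 19.4%, beside 11.5%. TGGGAA was found in the promoter window of 10 of 47 members (21.3%) and of 25.2% of all promoters, including 4 of the 16 bound members and 6 of the 31 others. CCAAT was found at 36.2% of members and 38.6% of all promoters, ACTACA, part of the element of Znf143, at 10.6% and 10.9%, and TATAAA at 8.51% and 12.7%.

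The last 100 bases before the start are shown for Psmd2, Psmd11 and Psmg1, the bound members with CCGGAAG in that stretch and no neighbour starting there. Capitals mark the motif or its reverse complement CTTCCGG. All 3 stretches lie inside the RBPJ peak of the gene.
Psmd2, chr16:20651552-20651651: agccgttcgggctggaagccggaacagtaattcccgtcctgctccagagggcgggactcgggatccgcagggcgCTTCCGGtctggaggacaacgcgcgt
Psmd11, chr11:80428515-80428614: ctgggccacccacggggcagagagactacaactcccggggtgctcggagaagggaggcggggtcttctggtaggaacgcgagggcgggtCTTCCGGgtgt
Psmg1, chr16:95990961-95991060: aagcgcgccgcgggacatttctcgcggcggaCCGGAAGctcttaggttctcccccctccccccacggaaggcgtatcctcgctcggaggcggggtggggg

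Other genes of the ubiquitin-proteasome pathway were counted from a list of 34, of which 33 were found on these chromosomes. A peak was present at 16 of 33 (48.5%, interval 30.8% to 66.5%), beside the background of 28.3%. The background lay below that interval, while the share of 50.9% at other CpG-rich genes lay inside it. The promoter class of these 33 genes was not counted, and a difference was not tested. The list was drawn up by hand from general knowledge. Of 13 genes for assembly factors and proteins bound to the proteasome 6 had a peak. They included Pomp, the maturation factor of the core (centre 105 bp from the start, 335 bp wide), Sem1, the smallest 19S subunit (139 bp, 452 bp wide), and Uchl5, a deubiquitinase of the 19S particle (559 bp, 1908 bp wide). Of 11 genes for shuttle proteins and the Vcp segregase pathway 7 had a peak (63.6%, interval 30.8% to 89.1%). They included Rad23b, Ubqln1, Ubqln4, Zfand2a, Zfand5 and Bag6. Of 5 genes for ubiquitin or its activation 2 had a peak (40.0%, interval 5.27% to 85.3%). They included Uba6, which encodes a ubiquitin-activating enzyme, with a peak centred 121 bp from its start. Among the 4 regulators of proteasome transcription, Nfe2l2 had a peak (481 bp from the start, 1384 bp wide) with TGGGAA in its central 200 bp, while Nfe2l1, Ddi2 and Ngly1 had none. Other genes without a peak were Adrm1, Ecpas, Akirin2, Psme2b, Usp14, Ube3c, Midn, Ubb, Rps27a, Vcp, Nploc4, Ufd1 and Faf2. Of the genes named without a peak, Ddi2, Ecpas, Akirin2 and Vcp lie on chromosome 4, which holds few peaks. Rad23b lies there too and had a peak. Without chromosomes 4 and 7 the pathway share was 53.6%, or 15 of 28.

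Other large families of housekeeping complexes gave shares in the same range. Of 79 cytosolic ribosomal protein genes 32 had a peak (40.5%, interval 29.6% to 52.1%), and of 81 respiratory chain genes 27 had one (33.3%, interval 23.2% to 44.7%). The background of 28.3% lay below the first interval and inside the second. CpG-rich promoters made up 68.4% of the first family and 55.6% of the second. The share of 34.0% at the proteasome subunit genes lay inside both intervals.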

How the data were processed

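Sample titles gave the group and the replicate number. According to its methods and processing notes, the study mapped reads with Bowtie against GRCm38, dropped duplicates (Picard, SAMtools), ran MACS2 and PeakRanger as peak callers, merged peaks lying within 2 kb, kept regions found repeatedly over callers and replicates and left out blacklisted regions. The files deposited by the authors give start and end positions in bp, a unit other than a count or score. Such a list cannot show how strongly a site was bound, and merging can move the centre of an interval away from the bound site. In the final list, made after the merging, 28 of 11073 neighbouring pairs had gaps of 2 kb or less, the smallest 112 bp. Starts were read as counted from 1. Peaks were compared with GRCm38.p6 and GENCODE M21, and 0 ran past a chromosome end.

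The annotated 5' end of the gene was the transcription start, and the nearest peak centre was used where a gene had several. Shares and medians over the peaks of other genes count 1 nearest peak per bound gene, so a shared peak recurs. The hexamer density counts each distinct peak once. Position matching and motif search were tested on simulated data. Intervals on shares, where given, are exact (Clopper-Pearson) 95% binomial intervals, and no test was run over genes. The members, gene lists and motifs were chosen with earlier results of these data known. Every member was named once by role, and pathway genes were given by counts, with those lacking a peak named, except that some pathway genes are not reported here by name. Sequences were planned for peaks with TGGGAA in the central 200 bp and for catalytic beta genes with a peak, and the other sequences printed were picked with their values in view. The alternatives changed the start, window, peak width, chromosomes 4 and 7, gene models, promoter class and motif window. Software was pysam 0.24.0, scipy 1.17.1, pandas 2.3.3, numpy 2.4.6 and matplotlib 3.10.9 under Python 3.11.15.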

Additional observations from a re-analysis of the deposited data

How the results depend on the processing

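No paired analysis was possible because replicates 1 and 2 of RBPJ hold 1 identical list and no result compares groups of samples. Without RBPJ replicate 1 or 2 the values were therefore equal, at 34.0% of members, 28.3% of other genes and a difference of 5.76 percentage points. The share of bound members stayed inside its interval under every alternative, from 25.0% to 46.8%. The share of other genes was 31.4% with coding transcript starts, 26.0% within 1 kb, 31.4% within 5 kb, 30.2% with any base of the peak, 21.7% with peaks of at least 500 bp, 32.8% without chromosomes 4 and 7, 29.7% without predicted gene models, 47.2% with domains of up to 1 Mb, 50.9% among CpG-rich promoters, 57.5% among those outside chromosomes 4 and 7, and 25.2% without genes with an opposite-strand start within 1 kb. The difference changed sign with domains of up to 1 Mb (-0.40 percentage points), among CpG-rich promoters (-9.28), among those outside chromosomes 4 and 7 (-14.6) and without opposite-strand neighbours (-0.18). The alternatives on CpG-rich promoters outside chromosomes 4 and 7 and on opposite-strand starts were added after the data were seen. The cause was not tested. TGGGAA was found in 62.5% of whole member peaks. In the peaks of other genes it was found in 8.34% of central 100 bp windows, 58.0% of whole peaks and 13.3% of the central 200 bp of peaks of at least 500 bp, and GTGGGAA in 5.52%. The median distance at members (169.5 bp, 95% order-statistic interval 60 to 360 bp) reached 224 bp and the median width (850 bp, interval 611 to 1248 bp) reached 1006 bp with peaks of at least 500 bp. The share of shared peaks and the pathway share stayed inside their intervals. Depth could not be weighed, since the list gives no counts.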
